A study of Mus musculus with 21 samples.

Results

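The 39 protein-coding Hox genes of the mouse were followed across the lines of 2 pancreatic tumour cell clones. They were taken by name, as every row of the deposited expression table that carries Hox, a cluster letter from a to d and a paralog number, which gave 39 of the 24623 genes listed. HoxA on chromosome 6 had 11 members, HoxB on chromosome 11 had 10, HoxC on chromosome 15 had 9 and HoxD on chromosome 2 had 9. Of the 39 genes, 19 averaged at least 1 TPM, a unit of transcript abundance scaled to length and library, in at least 1 line, the level called expressed here, and 20 did so in no line.

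Hox genes encode homeodomain transcription factors that give cells of the embryo their position along the head-to-tail axis and along the limb. The genes of a cluster lie in the order of the body regions they pattern. Low paralog numbers act towards the head and high numbers (the posterior group, such as Hoxa9 to Hoxa13) towards the tail and the distal limb. Members with the same number in different clusters are paralogs with overlapping functions. Polycomb proteins keep the clusters silent where they are not needed, trithorax proteins and retinoic acid help to open them, and Pbx and Meis proteins bind DNA together with Hox proteins. Adult fibroblasts keep a Hox pattern that reflects the body site they came from.

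The study set lines labelled EPHA2-KO against the WT line of the clones 6694c2 and 6419c5. EPHA2 is a cell-surface receptor for ephrins and a tyrosine kinase. Each clone had 2 knockout lines and 1 WT line, with 4 libraries per line in 6694c2 and 3 per line in 6419c5, 21 in all. All groups were untreated tumour cells that had grown under the skin of C57BL/6 mice and were sorted out of the tumours at 3 weeks. The table names the knockout lines KOA and KOB, while the sample labels number them, and which letter goes with which number is not given. How the edit was made, whether a knockout line is 1 cell clone, and whether each library had its own animal is not stated in the labels, so a p-value here measures only the spread between libraries of these lines. A difference between 1 knockout line and WT cannot be told apart from other differences between those lines.

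Epha2 itself averaged 114.9 ± 18.3 TPM in KOA and 97.8 ± 11.4 TPM in KOB of 6694c2, against 244.7 ± 5.11 TPM in WT (SD, n = 4 each). In 6419c5 it averaged 150.5 ± 6.05 TPM in KOA and 197.1 ± 25.7 TPM in KOB, against 176.2 ± 13.5 TPM in WT (SD, n = 3 each), so the libraries labelled KOB were not lower than WT. A TPM over the whole gene does not show whether an edit is present. TPM keeps no read numbers, so depth is unknown. Epithelial carcinoma markers summed to between 5754 and 16403 TPM in every library. Of 8 acinar genes, Cpa1, Amy2a5 and Ptf1a were at 0 throughout, and 1 or 2 averaged at least 1 TPM in each line. The 8 acinar genes summed to 3.08 to 3.58 TPM in 6419c5 KOB and to 75.7 to 116 TPM in 6694c2 KOB, the lowest and highest lines. Macrophage markers were present in every line (208 to 4334 TPM summed over 12 genes). A sum over 12 fibroblast and pericyte markers was 70.9 to 169 TPM in KOA and 16.1 to 23.2 TPM in KOB of 6694c2, against 49.7 to 68.7 TPM in WT. In 6419c5 that sum was 69.3 to 73.4 TPM in KOA and 140 to 199 TPM in KOB, against 206 to 609 TPM in WT. The part of such host cells in the Hox values below was not tested. Fewer cells of a type and less RNA per cell cannot be told apart in these libraries. In 2 libraries, library 4 of 6694c2 KOB and library 3 of 6419c5 WT, the ribosomal fragment gene Mir6236 took 145023 and 91142 TPM, against 22665 to 54492 TPM in the others.

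The promoters of 5 HoxA genes are shown because these genes, close together on the same strand, moved in different directions in the knockout lines of 6419c5. Each is the RefSeq window of 300 bases on GRCm38.p6 (mm10), 250 before and 50 after the transcription start, on the minus strand, read 5′ to 3′. Capitals mark CpG dinucleotides, the substrate of DNA methylation.
Hoxa3, chr6:52213018-52213317: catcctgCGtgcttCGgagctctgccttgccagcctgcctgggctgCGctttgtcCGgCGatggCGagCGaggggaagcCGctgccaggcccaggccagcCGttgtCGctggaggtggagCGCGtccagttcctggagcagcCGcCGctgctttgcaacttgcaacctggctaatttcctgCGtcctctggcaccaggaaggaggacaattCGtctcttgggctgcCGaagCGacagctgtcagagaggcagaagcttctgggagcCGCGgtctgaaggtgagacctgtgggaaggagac
Hoxa9, chr6:52227321-52227620: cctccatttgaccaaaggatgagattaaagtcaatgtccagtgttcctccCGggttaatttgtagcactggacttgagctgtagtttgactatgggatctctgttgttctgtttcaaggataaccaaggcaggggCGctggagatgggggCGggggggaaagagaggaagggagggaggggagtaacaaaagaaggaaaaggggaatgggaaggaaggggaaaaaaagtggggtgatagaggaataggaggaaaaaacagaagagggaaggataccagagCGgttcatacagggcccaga
Hoxa10, chr6:52234890-52235189: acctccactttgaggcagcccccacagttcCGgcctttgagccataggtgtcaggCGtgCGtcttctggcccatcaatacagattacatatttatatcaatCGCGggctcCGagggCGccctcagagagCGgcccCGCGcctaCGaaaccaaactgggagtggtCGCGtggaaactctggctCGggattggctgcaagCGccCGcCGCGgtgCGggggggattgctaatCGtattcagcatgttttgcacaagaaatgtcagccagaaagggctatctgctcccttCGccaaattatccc
Hoxa11, chr6:52245761-52246060: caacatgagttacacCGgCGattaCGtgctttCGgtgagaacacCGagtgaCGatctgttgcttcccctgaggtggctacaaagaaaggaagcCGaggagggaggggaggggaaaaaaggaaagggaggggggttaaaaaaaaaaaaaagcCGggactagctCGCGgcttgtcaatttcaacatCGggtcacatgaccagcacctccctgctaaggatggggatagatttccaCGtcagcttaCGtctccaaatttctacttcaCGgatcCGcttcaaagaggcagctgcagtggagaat
Hoxa13, chr6:52260831-52261130: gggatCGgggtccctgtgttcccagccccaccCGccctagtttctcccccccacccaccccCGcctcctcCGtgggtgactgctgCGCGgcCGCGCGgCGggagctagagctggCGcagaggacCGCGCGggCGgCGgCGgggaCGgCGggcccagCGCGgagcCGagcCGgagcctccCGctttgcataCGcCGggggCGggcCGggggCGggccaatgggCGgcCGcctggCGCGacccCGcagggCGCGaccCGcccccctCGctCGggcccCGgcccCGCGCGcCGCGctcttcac
The Hoxa13 window holds 45 CpGs, Hoxa10 21, Hoxa3 20, Hoxa11 15 and Hoxa9 4. RefSeq gives Hoxa10 another start with 12 CpGs. The table of promoters matched 22 of the 39 genes with 24 windows, whose median was 14.5 CpGs, against 7.0 over all 32851 windows of that length. At least 10 CpGs were found in 17 of the 24 Hox windows and in 43.5% of all windows. The letters TGATNNAT, which Hox and Pbx proteins can bind together, were searched on both strands and were found in 4 of 24 Hox windows (16.7%) and in 8.85% of all windows. None of the 5 windows printed held them. The GC box GGGCGG, a site for Sp1-type factors, was found on either strand in 10 of 24 Hox windows (41.7%) and in 35.7% of all. It occurs 6 times in the Hoxa13 window, and each copy contains a CpG. These matches describe the letters in the windows and say nothing of what binds there.

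The WT lines of the 2 clones differed in Hox expression. In WT 6694c2 no Hox gene averaged 1 TPM, and all 39 together summed to 3.45 ± 0.768 TPM (SD, n = 4). In WT 6419c5 the sum was 83.8 ± 17 TPM (SD, n = 3) and 13 genes were expressed, 8 of HoxA, among them Hoxa3, Hoxa10 and Hoxa11, and 5 of HoxB (Hoxb3 to Hoxb7). HoxA made up 0.421 ± 0.274 TPM in WT 6694c2 and 55.7 ± 11.8 TPM in WT 6419c5. HoxB made up 1.18 ± 0.135 TPM in WT 6694c2 and 25.5 ± 6.24 TPM in WT 6419c5. HoxC and HoxD stayed low in both, at 0.843 ± 0.323 and 1.0 ± 0.104 TPM in WT 6694c2 and at 1.47 ± 0.394 and 1.10 ± 0.210 TPM in WT 6419c5.

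Changes were tested with limma on log2(TPM + 1), with Benjamini-Hochberg adjustment over the 14337 genes that reached 1 TPM in at least 3 libraries, and calls were made where the adjusted p was under 0.05. All log2 differences below are on that scale, which understates the change of genes near 0. The filter kept 15 of the 39 Hox genes: Hoxa3, Hoxa5, Hoxa6, Hoxa7, Hoxa9, Hoxa10, Hoxa11 and Hoxa13, Hoxb3 to Hoxb7, and Hoxd8 and Hoxd9. No HoxC gene passed. Some genes passed through the libraries of a few lines, so the counts are read beside the share of all tested genes that was called.

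Between the WT lines, 13 of the 15 were called lower in 6694c2 by limma and none higher (none at an unadjusted p under 0.05), where 32.0% of all tested genes were called lower and 21.5% higher. The median log2 difference was -1.63 over the 15 and -0.11 over all tested genes. Of the fibroblast and pericyte markers 8 of 12 were also called lower in WT 6694c2 and 1 higher (median -1.36), and of the tested endothelial markers 4 of 6 were called lower (median -0.78). Their part in the difference was not tested. Hoxa10, which patterns the limb and the reproductive tract, measured 0.0785, 0.0428, 0.0815 and 0 TPM in WT 6694c2, against 26.9, 18.5 and 19.7 TPM in WT 6419c5. The log2 difference of Hoxa10 was -4.42 ± 0.15 (SE, limma, adjusted p = 1.24e-13). Hoxb6 followed at -3.92 ± 0.20 (limma, adjusted p = 4.97e-11) and Hoxa3 at -3.58 ± 0.16 (limma, adjusted p = 5.5e-12). Hoxd8 and Hoxd9 were not called, with differences of -0.23 ± 0.13 and 0.21 ± 0.16. Hoxa7 (-0.59 ± 0.21) lost its call without WT 6419c5 library 1 (adjusted p = 0.128) or library 3 (0.0576), and without WT 6694c2 library 2 (0.0546) or library 3 (0.0555).

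**Figure D1:**
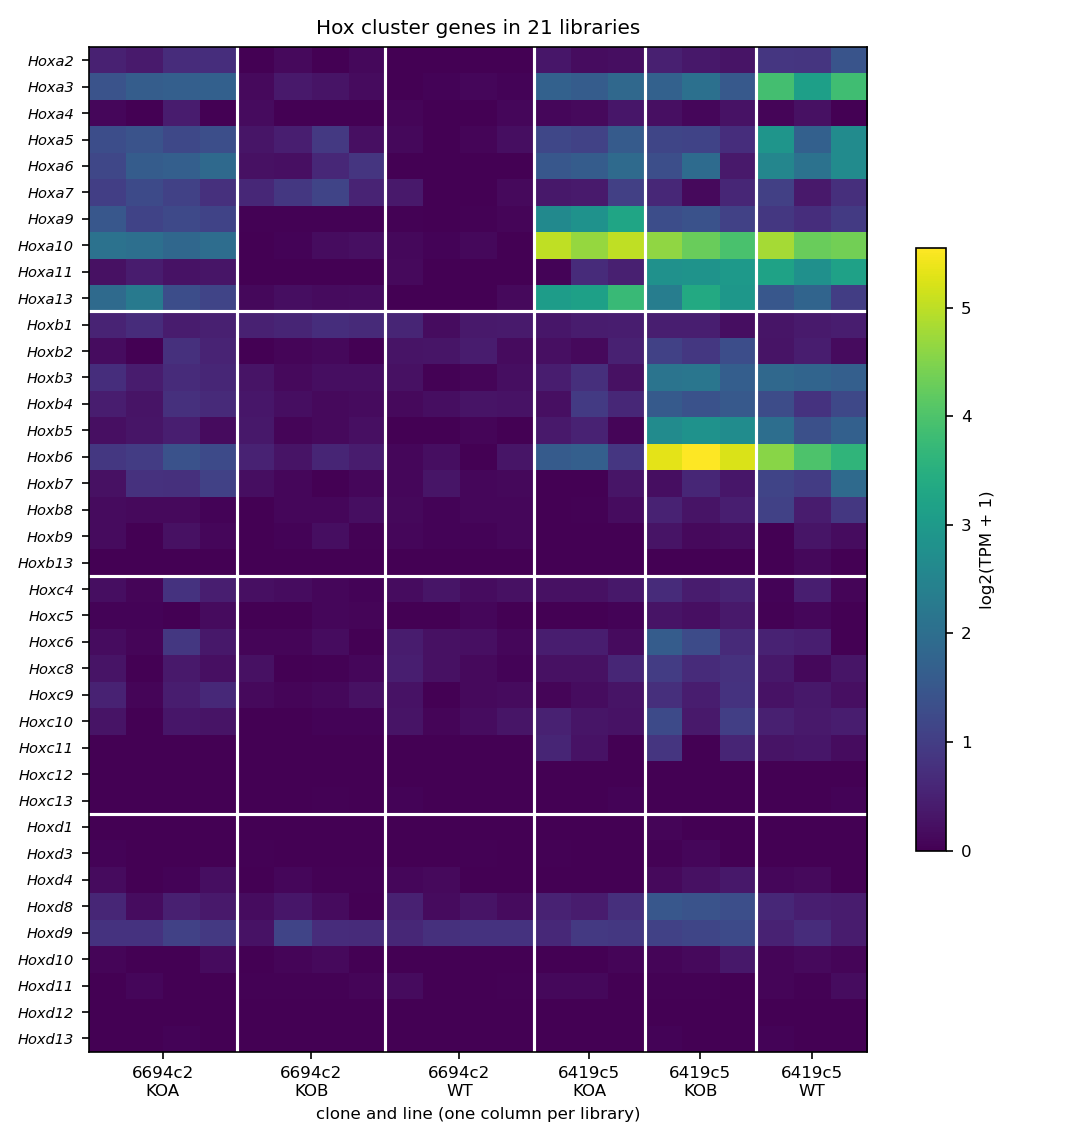
Level of the Hox genes in every library as log2(TPM + 1), from dark (0) to yellow (high). Rows are genes by cluster and paralog number, columns are libraries grouped by clone and line. WT and KOB of 6694c2 are dark or nearly so, KOA of 6694c2 shows a faint HoxA block, and in 6419c5 Hoxa10 is bright in all lines and Hoxb6 in KOB and WT.

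In clone 6694c2, line KOA expressed a set of HoxA genes that the WT line did not. The sum over HoxA was 14.1, 16.0, 13.6 and 13.5 TPM in the KOA libraries and 1.35, 2.03, 3.19 and 1.99 TPM in the KOB libraries, against 0.751, 0.119, 0.295 and 0.521 TPM in the WT libraries. In KOA 8 genes averaged at least 1 TPM: Hoxa3, Hoxa5, Hoxa6, Hoxa7, Hoxa9, Hoxa10, Hoxa13 and Hoxb6. None did so in KOB or in WT. Hoxa7 in KOA (1.06 TPM) was nearest above that level, and Hoxd9 in KOA (0.874 TPM) nearest below.

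Of the 15 tested genes, 10 were called higher in KOA than in WT by limma and none lower, beside 15.2% and 7.56% of all tested genes. No Hox gene was lower at an unadjusted p under 0.05 either, here and in the other comparisons below in which none was called lower. The median log2 difference of the 15 was 0.90, beside 0.08 over all tested genes. The largest difference was that of Hoxa10, at 3.27, 3.06, 2.60 and 2.94 TPM in KOA, against 0.0785, 0.0428, 0.0815 and 0 TPM in WT. Every KOA library lay above every WT library, and the log2 difference was 1.92 ± 0.14 (SE, limma, adjusted p = 3.2e-08). Hoxa13, which shapes the digits and the hindgut end, measured 2.80, 3.86, 1.5 and 1.21 TPM in KOA, against 0, 0, 0 and 0.110 TPM in WT. The groups did not overlap, and the log2 difference was 1.63 ± 0.25 (limma, adjusted p = 0.000115).

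The anterior and middle genes moved the same way in 6694c2 KOA. Hoxa3, needed for thymus and parathyroid formation, measured 1.69, 2.09, 2.19 and 2.24 TPM in KOA, against 0, 0.0356, 0.0677 and 0.0360 TPM in WT. Its log2 difference was 1.56 ± 0.15 (limma, adjusted p = 6.82e-07). Hoxa6 was listed at 0 in all 4 WT libraries and measured 1.27, 2.05, 2.2 and 2.73 TPM in KOA (limma, adjusted p = 0.000174). Hoxa5, which acts in lung development, averaged 1.49 ± 0.146 TPM in KOA and 0.0734 ± 0.0652 TPM in WT (SD, n = 4 each; limma, adjusted p = 0.000427). Hoxa9, a gene known from blood progenitors and leukaemia, averaged 1.38 ± 0.324 TPM in KOA and 0.0282 ± 0.0240 TPM in WT (SD, n = 4 each; limma, adjusted p = 3.35e-06). Hoxa7 averaged 1.06 ± 0.281 TPM in KOA and 0.102 ± 0.146 TPM in WT (limma, adjusted p = 0.00262).

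The run of expressed HoxA genes in 6694c2 KOA had gaps. Hoxa11, between Hoxa10 and Hoxa13 on the chromosome, measured 0.193, 0.342, 0.208 and 0.240 TPM in KOA, against 0.110, 0, 0 and 0 TPM in WT. The groups did not overlap, but its log2 difference of 0.28 ± 0.12 was not called (limma, adjusted p = 0.121). Hoxa4 did not pass the filter, with 0.0728, 0, 0.346 and 0 TPM in KOA. Hoxa2 averaged 0.512 TPM in KOA. TPM is scaled to transcript length, so these levels may be set beside each other.

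In HoxB, 3 genes were called higher in 6694c2 KOA. Hoxb6 measured 0.870, 0.995, 1.65 and 1.38 TPM in KOA, against 0.0710, 0.154, 0 and 0.235 TPM in WT, and its log2 difference was 0.99 ± 0.19 (limma, adjusted p = 0.00107). Hoxb3 (0.46 ± 0.13, adjusted p = 0.0177) and Hoxb7 (0.55 ± 0.19, adjusted p = 0.0415) were called higher by limma at averages under 1 TPM. Hoxb3 lost its call without WT library 2 (adjusted p = 0.0521). Hoxb7 was called under 16 of its 25 alternative settings, counting each fit that left out 1 library. It passed the filter only through KOA library 4 and WT libraries of 6419c5, so its call here supports nothing. Hoxb4, Hoxb5, Hoxd8 and Hoxd9 were not called. The fibroblast and pericyte markers were also higher in KOA of this clone (70.9 to 169 TPM, against 49.7 to 68.7 TPM in WT), where 3 of 12 were called higher. Within KOA the marker sum ran from 70.9 to 169 TPM and the HoxA sum from 13.5 to 16.0 TPM. The part of the marked cells in the Hox values of this line was not tested.

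In line KOB of 6694c2, 1 of the 15 tested genes was called higher and none lower, beside 29.2% and 19.4% of all tested genes. The gene was Hoxa7, at 0.545, 0.860, 1.21 and 0.457 TPM in KOB, against 0.309, 0, 0 and 0.0975 TPM in WT. Its log2 difference was 0.67 ± 0.19 (limma, adjusted p = 0.00729), and every KOB library lay above every WT library. All KOB libraries also lay above all WT libraries for Hoxa3, Hoxa5 and Hoxa6, with log2 differences of 0.20, 0.38 and 0.49 that were not called (limma, adjusted p = 0.284, 0.144 and 0.116). How many of all tested genes were separated in this way was not counted, so the separation is not read as particular to Hox genes. Hoxa6 measured 0.182, 0.177, 0.545 and 0.807 TPM in KOB and 0 TPM in each WT library. With a pseudocount of 0.1, which gives low values more weight, 6 genes were called higher in KOB: Hoxa3, Hoxa5, Hoxa6, Hoxa7, Hoxb5 and Hoxb6. The share of all tested genes called at that setting is not reported here. Hoxa9 and Hoxa11 did not share this, with averages of 0.0251 and 0 TPM in KOB.

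The knockout lines of 6694c2 differed from each other. Of the 15 genes, 10 were called higher in KOA than in KOB and none lower, beside 22.9% and 23.6% of all tested genes. In the same comparison 8 of 12 fibroblast and pericyte markers (median log2 difference 1.11) and 5 of 6 tested endothelial markers (median 0.78) were called higher too. Their part in the Hox differences was not tested. The largest differences were those of Hoxa10 (1.87 ± 0.14, limma adjusted p = 6.47e-09), Hoxa13 (1.5 ± 0.25, adjusted p = 6.61e-05) and Hoxa3 (1.36 ± 0.15, adjusted p = 6.97e-07). Hoxa7 was not called between them (0.23 ± 0.19). Hoxb3 (0.39 ± 0.13, limma adjusted p = 0.0201) lost its call without KOA library 1 (0.055) or 3 (0.0503) or KOB library 2 (0.0517). Fitted on the libraries of this clone alone, 7 Hox genes passed the filter and 6 were called. The share of all genes called in that fit is not reported here. Hoxa11 (0.32 ± 0.12, adjusted p = 0.0458) lost its call in 16 of the 21 fits that left out 1 library.

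With the knockout lines averaged, 8 genes were called higher than WT in 6694c2 and none lower, beside 23.9% and 13.5% of all tested genes. They were Hoxa3, Hoxa5, Hoxa6, Hoxa7, Hoxa9, Hoxa10, Hoxa13 and Hoxb6. When the line was entered as a random effect, limma called none of the 15, beside 0.907% of all tested genes. Hoxa3 and Hoxa10 had an unadjusted p under 0.05 there. That fit allows for the likeness of libraries within a line by 1 correlation (0.546) shared by all genes. It still counts libraries, and each clone has 2 knockout lines and 1 WT line. A call kept under it is therefore not a test with lines as replicates. An exact two-sided permutation test of the 8 knockout against the 4 WT libraries, whose smallest possible p is 0.00202, gave p = 0.00202 for Hoxa7 and p = 0.0101 for Hoxa6. How many of all tested genes had so low a p was not counted. Hoxa7 passed the filter only with the knockout libraries of this clone, where it was high, so its averaged call and that p support nothing. In the same exact test Hoxa10 had p = 0.099, since its KOB libraries overlapped WT.

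**Figure D2:**
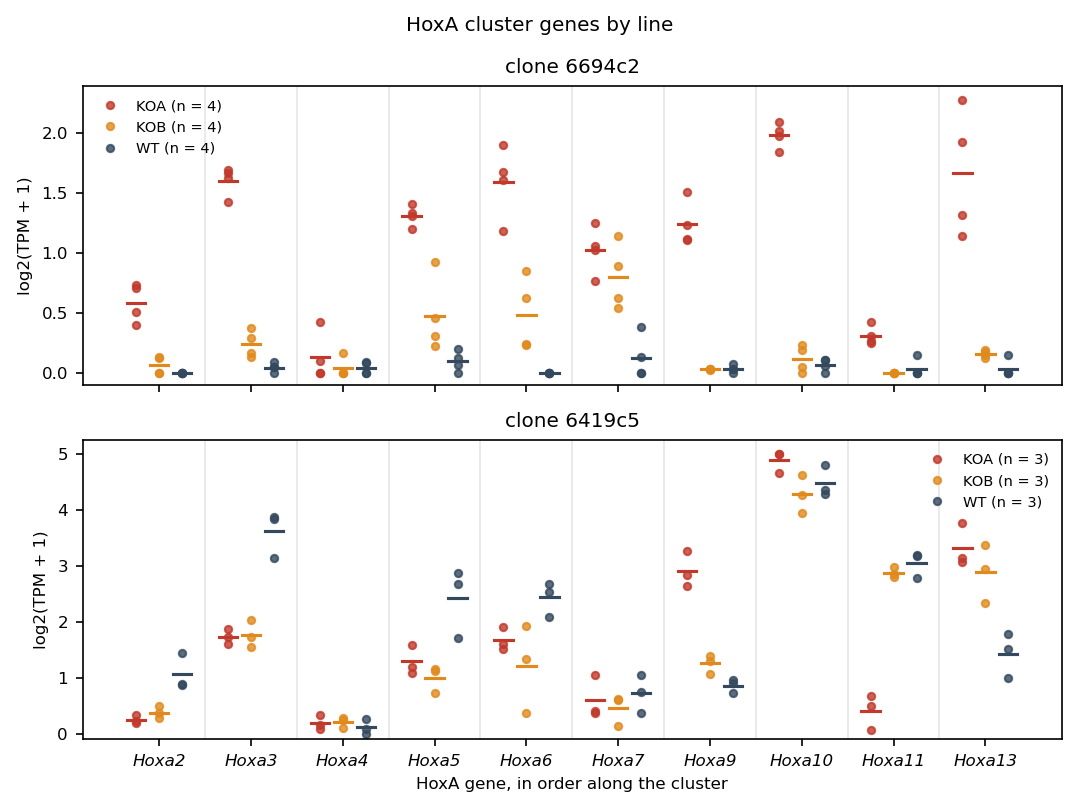
Levels of HoxA genes in order along the cluster, as log2(TPM + 1), with clone 6694c2 above and 6419c5 below on axes of different range. Points are libraries, bars are line means. In 6694c2 the KOA points stand above WT at the genes drawn except Hoxa4, by least at Hoxa11. In 6419c5 both knockout lines lie below WT at Hoxa2, Hoxa3 and Hoxa5 and above it at Hoxa9 and Hoxa13, and KOA is low at Hoxa11.

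In clone 6419c5 the HoxA cluster stayed active in every line, and its composition differed. In KOA 7 Hox genes were expressed (Hoxa3, Hoxa5, Hoxa6, Hoxa9, Hoxa10, Hoxa13 and Hoxb6), and in KOB 15, against 13 in WT. The 15 of KOB were 7 of HoxA, 5 of HoxB (Hoxb2 to Hoxb6), Hoxc6, Hoxd8 and Hoxd9. The sum over HoxA was 50.3, 45.2 and 62.0 TPM in KOA and 41.5, 43.4 and 33.1 TPM in KOB, against 66.5, 43.1 and 57.6 TPM in WT. WT overlapped both knockout lines, while every KOA library lay above every KOB library. Hoxa10 was the most abundant HoxA gene in each line, at 31.3, 24.5 and 31.2 TPM in KOA and 23.7, 18.3 and 14.5 TPM in KOB, against 26.9, 18.5 and 19.7 TPM in WT. Neither knockout line was called against WT for Hoxa10 (0.41 ± 0.16, limma adjusted p = 0.0544 for KOA, and -0.20 ± 0.16, adjusted p = 0.312 for KOB). The KOA difference was called under 5 of 31 alternative settings. KOA was higher than KOB (0.62 ± 0.16, limma adjusted p = 0.0117), a call lost without KOA library 1 (adjusted p = 0.0541) or KOB library 3 (0.0754).

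Hoxa3 and Hoxa5 fell in both knockout lines of 6419c5. Hoxa3 measured 2.31, 2.04 and 2.64 TPM in KOA and 2.32, 3.11 and 1.93 TPM in KOB, against 13.8, 7.82 and 13.3 TPM in WT. All 6 knockout libraries lay below all 3 WT libraries, with log2 differences of -1.89 ± 0.17 in KOA and -1.85 ± 0.17 in KOB (limma, adjusted p = 1.93e-07 and 1.79e-07). Hoxa5 measured 1.28, 1.13 and 2.02 TPM in KOA and 1.22, 1.16 and 0.652 TPM in KOB, against 6.38, 2.26 and 5.44 TPM in WT. Its log2 differences were -1.14 ± 0.24 in KOA and -1.43 ± 0.24 in KOB (limma, adjusted p = 0.00144 and 0.000129). Both genes were called in both lines under all 31 alternative settings. Hoxa6 was called lower in KOB (-1.23 ± 0.29, limma adjusted p = 0.00227) and not in KOA (-0.76 ± 0.29; limma, adjusted p = 0.0522; 7 of 31 alternative settings called it), although the KOA libraries lay below all WT libraries too. Hoxa7 was called in neither.

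Hoxa2, a gene of the hindbrain and its neural crest, did not pass the filter. It averaged 0.186 ± 0.0675 TPM in KOA and 0.300 ± 0.0928 TPM in KOB, against 1.13 ± 0.517 TPM in WT (SD, n = 3 each). The 6 knockout libraries lay below the 3 WT libraries. Without the filter, limma called Hoxa2 lower in both lines, with log2 differences of -0.82 ± 0.12 in KOA and -0.69 ± 0.12 in KOB (adjusted p = 8.13e-05 and 0.000283).

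The posterior HoxA genes split. Hoxa9 measured 5.21, 6.13 and 8.60 TPM in KOA and 1.47, 1.63 and 1.10 TPM in KOB, against 0.866, 0.652 and 0.932 TPM in WT. The 3 lines did not overlap, and Hoxa9 was called higher in both knockout lines, with log2 differences of 2.05 ± 0.15 in KOA and 0.40 ± 0.15 in KOB (limma, adjusted p = 2.06e-08 and 0.039). The KOB call was lost without KOB library 1 (adjusted p = 0.0959) or 2 (0.138) and without WT library 1 (0.0599) or 2 (0.129). Hoxa13 measured 7.43, 7.87 and 12.6 TPM in KOA and 4.08, 9.34 and 6.67 TPM in KOB, against 1.85, 2.45 and 0.997 TPM in WT. It was called higher in both lines (KOA 1.90 ± 0.28, limma adjusted p = 5.35e-05; KOB 1.45 ± 0.28, adjusted p = 0.000473), under all 31 alternative settings.

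Hoxa11, which lies between Hoxa10 and Hoxa13 and patterns the forearm and uterus, was low in 1 of the knockout lines. It measured 0.0391, 0.595 and 0.403 TPM in KOA and 5.96, 6.21 and 6.93 TPM in KOB, against 8.13, 5.92 and 8.01 TPM in WT. The KOA libraries lay far below the others, while KOB and WT overlapped. The log2 difference from WT was -2.65 ± 0.14 in KOA and -0.17 ± 0.14 in KOB (limma, adjusted p = 6.02e-10 and 0.352). KOA differed from KOB by -2.47 ± 0.14 (limma, adjusted p = 3.45e-09). In GENCODE, 800 of the 2287 exonic bases of Hoxa11 (35.0%) also belong to the antisense RNA Hoxa11os. Strandedness of the libraries is not stated, so reads from these bases cannot be told apart.

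In HoxB the knockout lines of 6419c5 lay on opposite sides of WT. The HoxB sum was 3.30, 4.71 and 2.77 TPM in KOA and 52.1, 59.1 and 48.7 TPM in KOB, against 32.6, 22.3 and 21.4 TPM in WT, with no overlap between the lines. Hoxb6, the most abundant HoxB gene in KOB and WT, measured 2.03, 2.18 and 0.845 TPM in KOA and 39, 45.8 and 36.7 TPM in KOB, against 22.8, 15.1 and 11.4 TPM in WT. It was called lower in KOA (-2.69 ± 0.22, limma adjusted p = 6.03e-08) and higher in KOB (1.29 ± 0.22, adjusted p = 0.000125). The difference between KOA and KOB was -3.99 ± 0.22 (adjusted p = 1.49e-09).

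Hoxb5, which acts in gut neurons and blood stem cells, measured 0.291, 0.455 and 0.0499 TPM in KOA and 5.38, 6.11 and 5.51 TPM in KOB, against 3.02, 1.57 and 2.24 TPM in WT. It too was called lower in KOA (-1.36 ± 0.16, limma adjusted p = 3.14e-06) and higher in KOB (1.05 ± 0.16, adjusted p = 3.54e-05). Hoxb3 fell in KOA, to 0.363, 0.684 and 0.187 TPM, and measured 3.38, 3.5 and 2.15 TPM in KOB, against 2.65, 2.46 and 2.19 TPM in WT. The KOA difference of -1.30 ± 0.15 was called (limma, adjusted p = 4.35e-06), unlike that of 0.21 ± 0.15 in KOB (adjusted p = 0.287). In GENCODE, 2250 of its 4251 exonic bases (52.9%) are shared with the antisense Hoxb3os. Hoxb4 averaged 0.549 ± 0.378 TPM in KOA and 1.85 ± 0.183 TPM in KOB, against 1.16 ± 0.363 TPM in WT (SD, n = 3 each). Its KOA call (-0.50 ± 0.17, limma adjusted p = 0.0339) was lost without KOA library 1 (0.190) or 3 (0.0704) and without WT library 1 (0.132) or 3 (0.102).

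Among the tested HoxB genes, Hoxb7 was called lower than WT in both lines. It measured 0, 0 and 0.242 TPM in KOA and 0.149, 0.504 and 0.260 TPM in KOB, against 1.19, 0.992 and 2.77 TPM in WT. Hoxb7 reached 1 TPM only in libraries 1 and 3 of this WT line and in library 4 of 6694c2 KOA. It was tested only through libraries where it was high, so these calls are given in the counts alone and support nothing. Hoxb8, its neighbour, did not pass the filter. It measured 0, 0.0283 and 0.137 TPM in KOA and 0.447, 0.216 and 0.387 TPM in KOB, against 1.10, 0.348 and 0.876 TPM in WT. Hoxb2 averaged at least 1 TPM in 6419c5 KOB and in no other line, at 1.11, 0.871 and 1.49 TPM, with 0.174, 0.0990 and 0.417 TPM in KOA, against 0.219, 0.364 and 0.127 TPM in WT.

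**Figure D3:**
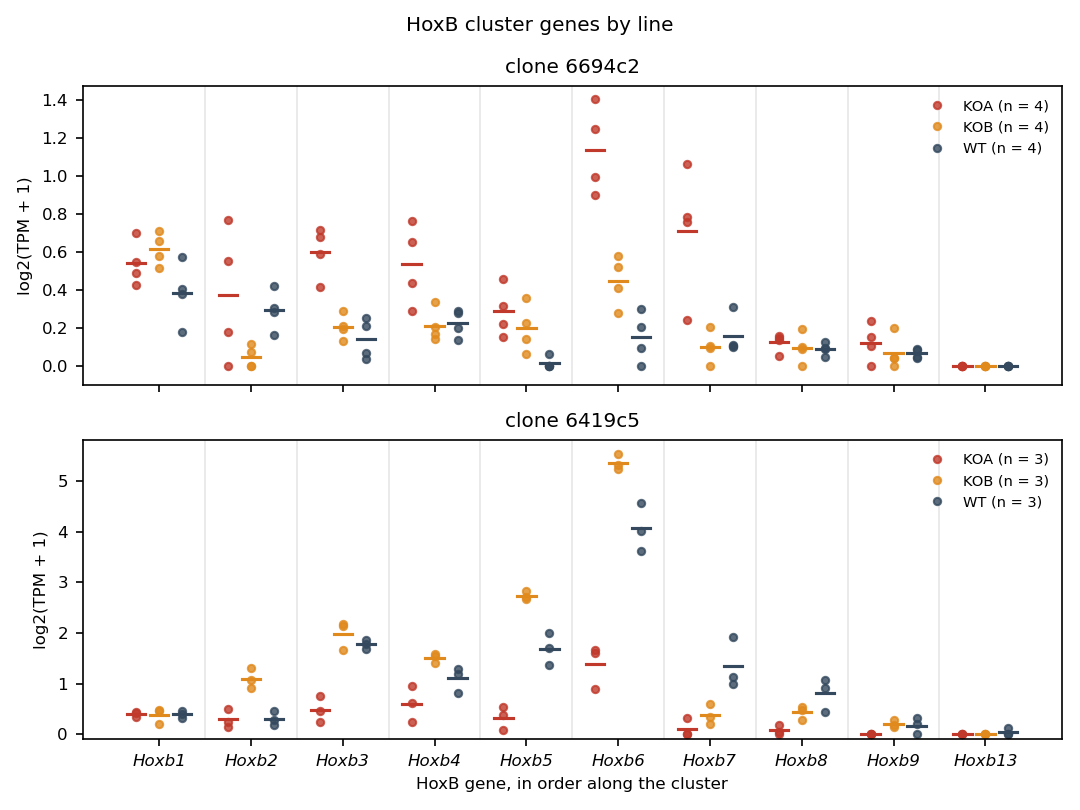
Levels of the 10 HoxB genes in order along the cluster, as log2(TPM + 1), with clone 6694c2 above and 6419c5 below on axes of different range. Points are libraries, bars are line means. In 6419c5 KOB stands highest at Hoxb2, Hoxb5 and Hoxb6 and KOA lowest at Hoxb3, Hoxb5 and Hoxb6, while WT is highest at Hoxb7.

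HoxC and HoxD were low everywhere, and highest in 6419c5 KOB. The HoxC sum was 1.71, 1.34 and 1.40 TPM in KOA and 6.70, 3.2 and 4.39 TPM in KOB, against 1.65, 1.75 and 1.02 TPM in WT. Hoxc6 was the HoxC gene that reached an average of 1 TPM, at 2.05, 1.41 and 0.593 TPM in KOB, with 0.358, 0.356 and 0.123 TPM in KOA, against 0.449, 0.375 and 0 TPM in WT. Without the filter, limma called Hoxc5, Hoxc6, Hoxc8, Hoxc9 and Hoxc10 higher in KOB than in WT, with log2 differences from 0.25 to 0.85. The share of all genes called without the filter is not reported here, so this count is not read as particular to HoxC. Hoxd8 measured 0.444, 0.340 and 0.686 TPM in KOA and 1.82, 1.68 and 1.51 TPM in KOB, against 0.543, 0.372 and 0.341 TPM in WT. Hoxd8 passed the filter only through the 3 KOB libraries, so its call in KOB is given in the counts alone and supports nothing. Hoxd9 measured 1.09, 1.24 and 1.37 TPM in KOB, against 0.447, 0.632 and 0.331 TPM in WT, and was not called in KOA (0.27 ± 0.17). It too passed the filter only with the KOB libraries, so its KOB call is given in the counts alone and supports nothing.

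In all, 2 of the 15 were called higher and 8 lower in KOA of 6419c5, beside 19.1% and 12.7% of all tested genes. In KOB 6 were called higher and 4 lower, beside 28.5% and 14.7% of all tested genes. The median log2 difference of the 15 was -0.76 in KOA and 0.21 in KOB, beside 0.04 and 0.10 over all tested genes. Both lines are set against the same 3 WT libraries. Directly compared, KOA was called higher than KOB for Hoxa9 and Hoxa10 and lower for Hoxa11, Hoxb3, Hoxb4, Hoxb5, Hoxb6 and Hoxd8, which is 2 and 6 of 15, beside 4.76% and 12.7% of all tested genes. The fibroblast and pericyte markers were lower in KOA (69.3 to 73.4 TPM) than in KOB (140 to 199 TPM) and WT (206 to 609 TPM), with 8 of 12 called lower than WT in KOA and 4 lower and 1 higher in KOB. Their part in the Hox differences of these lines was not tested.

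**Figure D4:**
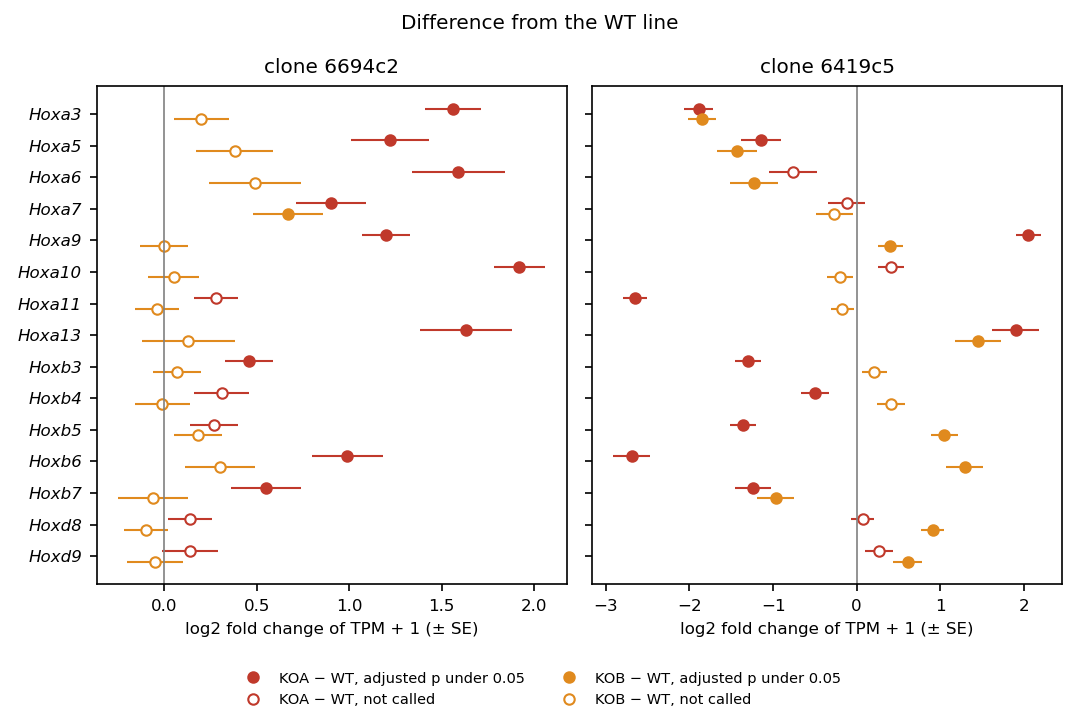
Log2 difference of each tested Hox gene between a knockout line and WT of its clone, with the SE from limma as the bar, KOA in red and KOB in orange. Filled points have an adjusted p under 0.05. In 6694c2 the called points lie right of 0 and nearly all belong to KOA, and in 6419c5 Hoxb5 and Hoxb6 lie left of 0 in KOA and right of 0 in KOB.

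With the knockout lines of 6419c5 averaged, 4 genes were called higher than WT (Hoxa9, Hoxa13, Hoxd8 and Hoxd9) and 7 lower (Hoxa3, Hoxa5, Hoxa6, Hoxa11, Hoxb3, Hoxb6 and Hoxb7), beside 26.5% and 15.0% of all tested genes. Taking each line as a random effect, only Hoxa3 was called (-1.87 ± 0.40, limma adjusted p = 0.0103), beside 4.11% of all tested genes. In the limma fit without that random effect, Hoxb6 lost its call when WT library 1 was left out (adjusted p = 0.0724). Hoxd9 lost its call without WT library 1 (0.0621) or 3 (0.104). An exact two-sided permutation test of the 6 knockout against the 3 WT libraries gave its smallest possible p, 0.0119, for Hoxa3, Hoxa5, Hoxa13 and Hoxb7. Any gene without overlap between these groups reaches that p. How many of all tested genes did so was not counted, so it is not read as particular to Hox genes. For Hoxb7, which passed the filter only through libraries where it was high, that p supports nothing. In the same exact test Hoxb6, which moved in opposite directions in the lines, had p = 0.571. Within 1 line of 3 libraries against 3 the exact test cannot go below p = 0.1.

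The averaged knockout effect differed between the clones for 11 of the 15 genes. It was higher in 6694c2 for 9 and lower for 2, beside 13.0% and 15.6% of all tested genes. The difference was largest for Hoxa3 (2.75 ± 0.19, limma adjusted p = 4.09e-08), for Hoxa5 (2.08 ± 0.28, adjusted p = 2.59e-05) and for Hoxa6 (2.03 ± 0.33, adjusted p = 0.000179). Hoxa3 was higher than WT in 8 of 8 knockout libraries of 6694c2 and lower in 6 of 6 of 6419c5. The KOB libraries of 6694c2 measured only 0.101 to 0.300 TPM for Hoxa3, against 0 to 0.0677 TPM in WT. Their difference was not called (0.20 ± 0.15, limma adjusted p = 0.284), so the averaged call of Hoxa3 there rests mainly on KOA. How many of all tested genes were separated in this way was not counted. Hoxa9 (-0.63 ± 0.17, adjusted p = 0.0107) was called higher in both clones, by more in 6419c5. Hoxa13 was called higher in both clones as well (0.88 ± 0.21 in 6694c2 and 1.68 ± 0.25 in 6419c5), and its difference of -0.80 ± 0.32 was not called (adjusted p = 0.0738). In KOB of 6694c2 neither Hoxa9 (-0.00 ± 0.13) nor Hoxa13 (0.13 ± 0.25) was called against WT, so their averaged calls there rest on KOA. Taking each line as a random effect, only the difference of Hoxa3 was called (2.75 ± 0.56, limma adjusted p = 0.0391).

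Noncoding RNAs made from the clusters were measured beside the coding genes. Of 19 listed, 16 were in the table and 6 passed the filter. Hotairm1, made from the anterior end of HoxA, measured 0, 0 and 4.6 TPM in KOA and 10.8, 13.9 and 2.54 TPM in KOB of 6419c5, against 78.1, 43.3 and 38.7 TPM in WT (averaged knockout effect -3.74 ± 0.54, limma adjusted p = 2.72e-05). Halr1, made from beside the HoxA cluster on the side of Skap2, measured 0.279, 1.42 and 0.817 TPM in KOA and 0, 0 and 1.30 TPM in KOB, against 40.1, 16.4 and 19.5 TPM in WT (-4.00 ± 0.34, limma adjusted p = 6.36e-08). Both were called lower than WT in KOA and in KOB of 6419c5, as Hoxa3 was. With a random effect for the line, the averaged call of Halr1 in 6419c5 was kept (limma, adjusted p = 0.00341) and that of Hotairm1 was lost (0.0860). In 6694c2, Halr1 was called higher in KOA (0.949, 0.556, 4.15 and 1.25 TPM, against 0 TPM in each WT library; limma, adjusted p = 0.0112).

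Antisense RNAs were measured for Hoxa11 and Hoxb5. Hoxa11os measured 0.754, 0.777 and 0.775 TPM in KOA and 4.95, 4.92 and 6.20 TPM in KOB of 6419c5, against 6.99, 4.64 and 5.0 TPM in WT, and was called lower in KOA (-1.87 ± 0.13, limma adjusted p = 1.73e-08). It was also called higher in KOA of 6694c2 (0.67 ± 0.12, limma adjusted p = 0.000428), where Hoxa11 was not called. Hoxb5os measured 1.53, 2.60 and 1.25 TPM in KOA and 17.1, 22.9 and 15.6 TPM in KOB, against 8.88, 7.64 and 8.51 TPM in WT, and was called lower in KOA and higher in KOB (limma, adjusted p = 8.62e-06 and 0.00096). Hoxaas3 fell in both lines of 6419c5 (limma, adjusted p = 0.0289 in KOA and 0.00269 in KOB). Of the 6, limma called 1 higher and 5 lower in KOA of 6419c5, beside 19.1% and 12.7% of all tested genes, and 1 and 3 in KOB, beside 28.5% and 14.7%. In KOA of 6694c2 it called 2 higher, beside 15.2%, and none lower (none at an unadjusted p under 0.05). In KOB of 6694c2 limma called none of the 6, and Hoxb5os had an unadjusted p under 0.05.

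**Figure D5:**
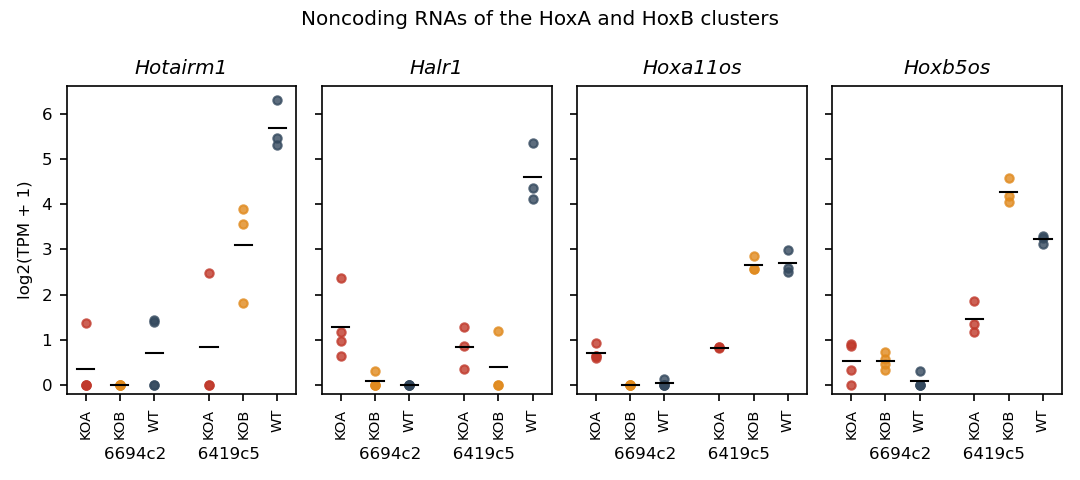
Levels of 4 noncoding RNAs of the clusters as log2(TPM + 1) in each line of 6694c2 and 6419c5. Points are libraries, bars are line means. Hotairm1 and Halr1 are high in WT of 6419c5, Hoxa11os is high in KOB and WT, and Hoxb5os is highest in KOB.

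Mir196b, the microRNA gene between Hoxa9 and Hoxa10 in RefSeq, measured 8.10, 14.2 and 26.6 TPM in KOA and 0, 0 and 2.29 TPM in KOB of 6419c5, against 14.7, 0 and 0 TPM in WT. It was called higher in KOA (2.64 ± 0.84, limma adjusted p = 0.0225), although 1 WT library lay within the KOA range. In GENCODE its 85 bases lie inside an exon of Hoxa9, and these libraries do not measure the mature microRNA. The mature arm from the 5′ side, chr6:52230129-52230150 on the minus strand, is shown with its seed (bases 2 to 8), the stretch that pairs with targets, in capitals.
mmu-miR-196b-5p: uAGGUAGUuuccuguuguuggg

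Genes of the proteins that bind DNA with Hox proteins were counted next. Of 9 Pbx, Meis and Pknox genes, 8 were tested. In 6694c2, limma called 1 lower in KOA, and 2 higher and 1 lower in KOB. In 6419c5, limma called 4 lower in KOA and 3 in KOB. Over all tested genes the shares called lower were 7.56% and 19.4% in KOA and KOB of 6694c2, and 12.7% and 14.7% in KOA and KOB of 6419c5, and 29.2% were called higher in KOB of 6694c2. The counts of 0 higher in KOA of either clone and in KOB of 6419c5 were also 0 at an unadjusted p under 0.05. Meis3 was called lower in all 4 knockout lines. It averaged 4.99 TPM in KOA and 3.73 TPM in KOB, against 13.3 TPM in WT of 6694c2 (averaged effect -1.46 ± 0.19, limma adjusted p = 8.56e-06), and 0.618 and 0.577 TPM, against 1.56 TPM in WT of 6419c5 (-0.70 ± 0.22, adjusted p = 0.0146). With a random effect for the line, both averaged calls of Meis3 were lost (limma, adjusted p = 0.140 in 6694c2 and 0.474 in 6419c5). Meis2 and Pbx4 were called higher in 6694c2 KOB (1.19 ± 0.13 and 1.16 ± 0.19; limma, adjusted p = 4.94e-07 and 7.58e-05).

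Of 11 ParaHox, Cdx and linked homeobox genes, 3 were tested. Cdx2, an intestinal factor that activates Hox genes in the embryo, measured 40.0, 46.4 and 45.7 TPM in KOA and 42.4, 38.7 and 52.8 TPM in KOB of 6419c5, against 19.2, 18.0 and 15.8 TPM in WT. No library overlapped (averaged effect 1.28 ± 0.14, limma adjusted p = 1.12e-06). In 6694c2 Cdx2 averaged 6.44 TPM in KOA and 9.02 TPM in KOB, against 5.22 TPM in WT, and was called in KOB (0.71 ± 0.14, limma adjusted p = 0.00037). Pdx1, the pancreatic lineage factor, was called higher in all 4 knockout lines, with averaged effects of 0.51 ± 0.07 in 6694c2 and 0.61 ± 0.08 in 6419c5 (limma, adjusted p = 1.88e-05 and 1.14e-05). With a random effect for the line both averaged calls of Pdx1 were lost (adjusted p = 0.228 and 0.0590), and that of Cdx2 in 6419c5 was kept (0.0170). Meox1, a mesodermal factor, measured 7.14, 7.87, 28.0 and 28.9 TPM in 6694c2 KOA, against 1.03, 1.88, 1.99 and 1.44 TPM in WT (2.63 ± 0.34, limma adjusted p = 2.48e-05).

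Chromatin regulators of the clusters were expressed in every line. All 23 Polycomb genes were tested, with 5 called higher by limma and none lower in KOA (none at an unadjusted p under 0.05), 6 higher and 5 lower in KOB of 6694c2, and 4 higher and 4 lower in KOA and 5 higher and 3 lower in KOB of 6419c5. The list's median log2 difference lay between 0.02 and 0.14, beside 0.04 to 0.10 over all tested genes. Cbx7, a subunit of a Polycomb repressive complex, was the one with a log2 difference of 1 or more. It averaged 19.1 TPM in KOA and 14.6 TPM in KOB, against 6.28 TPM in WT of 6419c5 (averaged effect 1.29 ± 0.10, limma adjusted p = 2.08e-08), and 22.8 and 11 TPM, against 18.3 TPM in WT of 6694c2. Of 17 trithorax, MLL and H3K27 demethylase genes, between 1 and 3 were called higher and between 1 and 4 lower per line. Both lists stand beside 15.2% to 29.2% of all tested genes called higher and 7.56% to 19.4% called lower per line. With a random effect for the line, the averaged call of Cbx7 in 6419c5 was kept (limma, adjusted p = 0.0142).

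Of 17 retinoic acid genes, 15 were tested. In 6694c2, 3 were called higher and 2 lower in KOA, beside 15.2% and 7.56% of all tested genes, and 2 higher and 9 lower in KOB, beside 29.2% and 19.4%. In 6419c5, 4 were called higher and 4 lower in KOA, beside 19.1% and 12.7%, and 8 higher and 3 lower in KOB, beside 28.5% and 14.7%. Stra6, the membrane receptor for retinol uptake and a retinoic acid target, measured 125, 42.5, 161 and 175 TPM in 6694c2 KOA, against 8.73, 15.0, 13.2 and 12.8 TPM in WT (3.08 ± 0.35, limma adjusted p = 5.72e-06). In 6419c5 it averaged 73.3 TPM in KOA and 96.4 TPM in KOB, against 9.85 TPM in WT (averaged effect 3.03 ± 0.35, adjusted p = 2.17e-06). It was not called in 6694c2 KOB. Cyp26b1, which degrades retinoic acid, was called lower in all 4 knockout lines (averaged effects -0.88 ± 0.13 in 6694c2 and -1.0 ± 0.15 in 6419c5; limma, adjusted p = 3.14e-05 and 3.19e-05). Aldh1a1, which makes retinoic acid, was called in opposite directions, 1.03 ± 0.26 in 6694c2 and -1.03 ± 0.30 in 6419c5 (limma, adjusted p = 0.00398 and 0.00934). With a random effect for the line, limma kept the averaged call of Stra6 in 6419c5 (adjusted p = 0.0485) and lost those of Cyp26b1 (0.258 in 6694c2 and 0.0897 in 6419c5) and Aldh1a1 (0.762 and 0.612). Aldh1a3, another enzyme that makes retinoic acid, was called lower in KOB of 6694c2 (-1.66, adjusted p = 3.42e-08) and higher in KOB of 6419c5 (1.16, adjusted p = 2.05e-05).

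The genes that flank the clusters were active in lines where the clusters were not. Skap2, the neighbour of HoxA, averaged 52.1 TPM in KOA and 60.7 TPM in KOB, against 48.1 TPM in WT of 6694c2, and 82.9 and 63.1 TPM, against 108 TPM in WT of 6419c5. Snx10, further out on that side, was called higher in all 4 knockout lines (averaged effects 0.90 ± 0.08 in 6694c2 and 0.44 ± 0.09 in 6419c5; limma, adjusted p = 1.35e-07 and 0.000982). Both averaged calls of Snx10 were lost with a random effect for the line (adjusted p = 0.0813 and 0.390). Of 22 flanking genes listed, 18 were in the table and 14 were tested, with 2 to 6 called higher and 2 to 7 called lower per line, beside 15.2% to 29.2% and 7.56% to 19.4% of all tested genes. Evx1, the homeobox gene at the posterior end of HoxA, stayed at or under 0.129 TPM in every library.

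The remaining 20 Hox genes stayed under an average of 1 TPM in every line, and the highest value of any of them in any library was 1.38 TPM, that of Hoxc10. Hoxc12 and Hoxd12 were listed at 0 in all 21 libraries. Hoxb13, Hoxc13, Hoxd1, Hoxd3 and Hoxd13 did not exceed 0.0792 TPM in any library. Over all genes listed, 58.8% of genes averaged 1 TPM in some line, beside 48.7% of the Hox genes. In GENCODE, 9 of the 39 genes share exonic bases with another gene on the same strand and 10 with a gene on the opposite strand, and the values of these are uncertain to that extent.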

How the data were processed

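RNA of tumour cells sorted from subcutaneous tumours was sequenced in 21 libraries. The values are TPM (transcript abundance per gene, scaled to length and to a fixed total of 1000000), deposited by the authors in 1 table. Salmon and the build mm10 are named per the submitters' processing notes, and the Salmon version is not given in the sources used here. TPM keeps no read numbers, so depth is unknown and no counting interval is given, and strandedness is not stated. Each column was matched by its name to a clone and to knockout or WT (0 unmapped). The line letters A and B and the library numbers come from the column names and are not tied to single sample labels, which number the knockout lines. Genes that reached 1 TPM in at least 3 libraries were tested (14337 of 24623).

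From the deposited TPM, log2(TPM + 1) was fitted with limma 3.58.1 in R 4.3.3, with 1 mean for each of the 6 lines, a trended prior and Benjamini-Hochberg adjustment over all tested genes. The fit had 15 residual degrees of freedom. Exact two-sided permutation tests went through every split of the libraries, in Python 3.11.15 with numpy 2.4.6. The fit was tested on simulated data. Alternatives were other pseudocounts and filters, other scalings, the libraries of 1 clone alone, a line as a random effect (statmod 1.5.0), a replicate block, and leaving out each library. Library numbers were not used to pair samples in the reported fit. The deviations of same-numbered libraries correlated between -0.147 and 0.173, and 6 of 21 pairs exceeded 0.1. Differently numbered libraries were not compared, so these values cannot decide whether the numbers pair samples.

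The members and gene lists were chosen with earlier results of these data known. A Hox gene is given with its own values where it averaged 1 TPM in some line. A gene of another list may be named where a knockout contrast called it with a log2 difference of at least 1, or among the 3 of its list with the smallest p. The values of some genes of these lists are not reported here. Other genes named were chosen after their values were seen. Sequences are from RefSeq (GRCm38.p6), and exon overlaps from GENCODE M21.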

Additional observations from a re-analysis of the deposited data

Results flagged for a closer look

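In 45 sets of 4 libraries, each a Hox gene in a line of 6694c2, 1 library stood apart from the other 3 by Dixon's test in 4, all of them in WT. These were Hoxa11 in library 1 (0.110 TPM), Hoxa13 in library 4 (0.110 TPM), Hoxb5 in library 3 (0.0474 TPM) and Hoxb7 in library 2 (0.243 TPM). Chance gives about 1 in 20 for normally spread values, and all of these values lie below the level called expressed. For Hoxa11, Hoxa13 and Hoxb5 the other 3 libraries were at 0, where any value above 0 is flagged, so that rate does not apply to them.

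The knockout effect differed between the clones, as the log2 difference of 6694c2 minus 6419c5, for 11 Hox genes (limma, adjusted p under 0.05). With a random effect for the line, the call of Hoxa3 alone was kept (adjusted p = 0.0391), and the other 10 had adjusted p from 0.238 to 0.966. It was higher in 6694c2 for Hoxa3 (2.75), Hoxa5 (2.08), Hoxa6 (2.03), Hoxa11 (1.53), Hoxb7 (1.35), Hoxb6 (1.34), Hoxa7 (0.98), Hoxa10 (0.88) and Hoxb3 (0.81). It was lower in 6694c2 for Hoxa9 (-0.63) and Hoxd8 (-0.47). Hoxa7, Hoxb7 and Hoxd8 passed the filter only with libraries of groups where they were high, so their differences support nothing. The difference of Hoxd8 lost its call in 8 of the 18 fits without 1 library in which it was tested, with adjusted p up to 0.0922. The averages join lines that often differed from each other. KOA was called higher than KOB for 10 of 15 genes in 6694c2, and higher for 2 and lower for 6 in 6419c5, Hoxb6 and Hoxa11 among them. For these genes the differences rest on which lines were averaged.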

How the results depend on the processing

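Over 4505 values of a Hox gene in a comparison under an alternative, 4351 kept their side of the threshold, 109 lost a call and 45 gained one. None that was called in the reported fit or in the alternative changed direction. Where neither fit called a gene, changes of direction were not counted. A random effect for the line, through 1 correlation shared by all genes, lowered the counts of called genes. They were 0 in place of 8 for the averaged knockouts of 6694c2 and 1 in place of 11 for those of 6419c5. For the difference between clones 1 was called in place of 11. Without a filter on low values, 37 Hox genes were tested: 17 were called for the averaged knockouts of 6419c5, 20 for its KOB against WT (10 in the reported fit) and 16 for its KOA against KOB (8). A filter of 2 TPM left 6 for KOB against WT in 6419c5. On the libraries of the clone alone, 6 in place of 10 were called for KOA against KOB in 6694c2. For the alternatives in this section, shares of all tested genes called are not reported here unless given above. The counts show how far the calls depend on the setting, not whether they exceed those shares.

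KOB against WT in 6694c2, with 1 called gene, gave 0 at a filter of 2 TPM, 2 with no filter, with the clone's libraries alone, with a pseudocount of 0.5 or with quantile normalization, and 6 with a pseudocount of 0.1. Leaving out 1 library gave 1 to 2. The other ranges were 8 to 8 and 8 to 11 (averaged knockouts of 6694c2 and 6419c5), 9 to 12 (difference between clones), 11 to 13 (WT lines), 8 to 10 (6694c2 KOA), 8 to 12 and 8 to 11 (6419c5 KOA and KOB), and 8 to 11 and 6 to 8 (KOA against KOB in 6694c2 and 6419c5). Of 92 called results, 81 kept their call in every such fit.

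At a mean of 2 TPM, 4 Hox genes were expressed in 6694c2 KOA, 7 in 6419c5 KOB and 8 in 6419c5 WT. At 0.5 TPM, 3 were in 6694c2 KOB and 1 in 6694c2 WT. With the replicate block, 8 and 11 genes were called for the averaged knockouts of 6694c2 and 6419c5 and 9 for KOA against WT in 6419c5, and no count moved by over 1.5 times. Whether same-numbered libraries share more than a number is not stated in the labels. The cause of these shifts was not tested. Depth is unknown, so how far it limits genes below 1 TPM cannot be said.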
